A study of Mus musculus with 4 samples.

Results

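The protein-coding genes of the cytosolic ribosome were examined in livers of C57BL/6 mice, a common inbred strain. Members were taken from the deposited count table as genes of protein-coding type whose symbol begins with Rpl or Rps followed by a number and optional letters, or is Rplp0, Rplp1, Rplp2 or Rpsa. The pattern took 82 of 54532 genes, of which 50 belong to the large and 32 to the small subunit. The rule uses symbols and gene type alone. Fau, Rack1 and Rps3a1, which also encode ribosomal proteins, fall outside the pattern and are given separately. The group labelled HFD, an abbreviation common for high-fat diet, comprised libraries 334 and 335. The other group received HFD and I3A, a treatment that the labels give only by this abbreviation, and comprised libraries 303 and 305. Both groups thus carried HFD, and no liver without it was analysed here. The labels give no age, dose or duration.

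A ribosome is built from a large subunit, which forms peptide bonds, and a small subunit, which reads the messenger RNA. Each holds its ribosomal RNA and a set of proteins that are made in the cytoplasm, imported into the nucleolus and assembled there in close to equal numbers. The messenger RNAs for these proteins begin with a C and a run of pyrimidines, the terminal oligopyrimidine tract, through which mTOR and LARP1 regulate their translation. In liver, ribosome content is known to follow feeding and growth. Messenger RNA levels, which were measured here, do not show how many ribosomes are assembled or how fast they work.

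Totals ran from 15005668 to 18255623 counts per library, and 1 count was worth between 0.0581 and 0.0651 CPM. CPM here is a gene's count relative to a library size scaled by TMM, a method that centres most genes on no change. The sums of tissue and cell type markers are the exception. They are CPM relative to the plain library total, without TMM. HFD 335 stood apart from the other libraries by transcripts of other tissues. Its 10 skeletal muscle markers reached 895 CPM in sum, while the other libraries held 0.703 to 0.933 CPM. For 9 exocrine pancreas markers the sums were 160.5 CPM there and 12.1 to 25.5 CPM in the others. The hepatocyte list of 10 genes was high in every library, between 97800 and 105300 CPM.

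The start of the gene is where the pyrimidine tract lies, so promoter windows are shown first. RefSeq (GRCm38.p6) held a promoter for 62 members. The search covered 15 bases either side of each annotated start. It sought runs of at least 6 bases that are all C or T on the gene's strand. A gene was counted if any of its starts had such a run. This held for 38 of the 62 members (61.3%), against 8833 of 27025 genes with a RefSeq promoter (32.7%). Windows of 60 bases before and 20 from the RefSeq start are given for 3 members with higher I3A values (Rpl7a, Rps12, Rpl23) and 2 that were close to level (Rps6, Rpl35). Capitals mark runs of at least 6 pyrimidines. The windows were searched on the gene's strand only.
Rpl7a, chr2:26910747-26910826, plus strand: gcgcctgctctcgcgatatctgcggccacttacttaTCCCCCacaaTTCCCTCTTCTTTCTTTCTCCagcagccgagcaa
Rps12, chr10:23787190-23787269, minus strand: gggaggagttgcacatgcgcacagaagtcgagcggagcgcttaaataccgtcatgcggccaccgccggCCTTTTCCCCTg
Rps6, chr4:86857348-86857427, minus strand: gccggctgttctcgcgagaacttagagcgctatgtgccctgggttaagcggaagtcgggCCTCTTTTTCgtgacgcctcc
Rpl35, chr2:39005112-39005191, minus strand: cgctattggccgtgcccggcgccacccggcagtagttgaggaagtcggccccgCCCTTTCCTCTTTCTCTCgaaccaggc
Rpl23, chr11:97782420-97782499, minus strand: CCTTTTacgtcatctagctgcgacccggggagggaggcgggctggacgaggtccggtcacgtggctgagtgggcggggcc
In Rpl7a, Rps6 and Rpl35 a run of capitals spans or meets the annotated start, and in Rps12 it begins just after it. The Rpl23 window holds its run far upstream, outside the 15 bases searched. Among tested members the median log2 fold change, I3A over HFD, was 0.07 for the 37 with a tract near the start and 0.12 for the 22 without. A match is a description of these letters and not of a start measured in these livers.

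After TMM scaling, ribosomal protein transcripts summed slightly higher in I3A than in HFD livers, by a similar amount in the large and the small subunit. Summed over the members, the level was 12393 CPM in HFD 334, 12783 CPM in HFD 335, 13416 CPM in I3A 303 and 13985 CPM in I3A 305. Both I3A libraries were above both HFD libraries, a 1.09-fold difference (log2 difference 0.12, with a spread within groups of 0.037 SD). Without HFD 335 the log2 difference was 0.14. No test was made of the sum, since an exact permutation of 2 against 2 libraries cannot go below p = 0.333. As a plain share of each library's counts, the members took 1.27% (HFD 334), 1.32% (HFD 335), 1.33% (I3A 303) and 1.32% (I3A 305). On that scale HFD 335 lay just above I3A 305, so the groups overlapped, and the log2 difference was 0.031. The separation of the groups was therefore present after TMM scaling and absent when library totals were used. In bulk liver, fewer cells of a type and less RNA per cell cannot be told apart.

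The large subunit summed to 7339, 7635, 8064 and 8349 CPM in HFD 334, HFD 335, I3A 303 and I3A 305. The small subunit summed to 5054, 5148, 5352 and 5636 CPM in the same order. Large over small gave ratios of 1.45, 1.48, 1.51 and 1.48, a measure in which library scaling cancels. The ratios of HFD 335 and I3A 305 were almost equal. The groups' log2 difference in the ratio was 0.026, close to the within-group SD of 0.020. No shift between the subunits was thus resolved beyond the spread between libraries. Endothelial and stellate cell markers, summed relative to plain library totals without TMM, also differed between libraries. The 7 endothelial markers summed to 139.5 and 224.1 CPM in HFD and to 125.8 and 49.9 CPM in I3A, and the 7 stellate and fibroblast markers to 169.1 and 315.8 CPM against 199.3 and 57.5 CPM. All 7 genes of each list had a negative log2 fold change. Their part in the ribosomal protein sums was not tested.

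**Figure D1:**
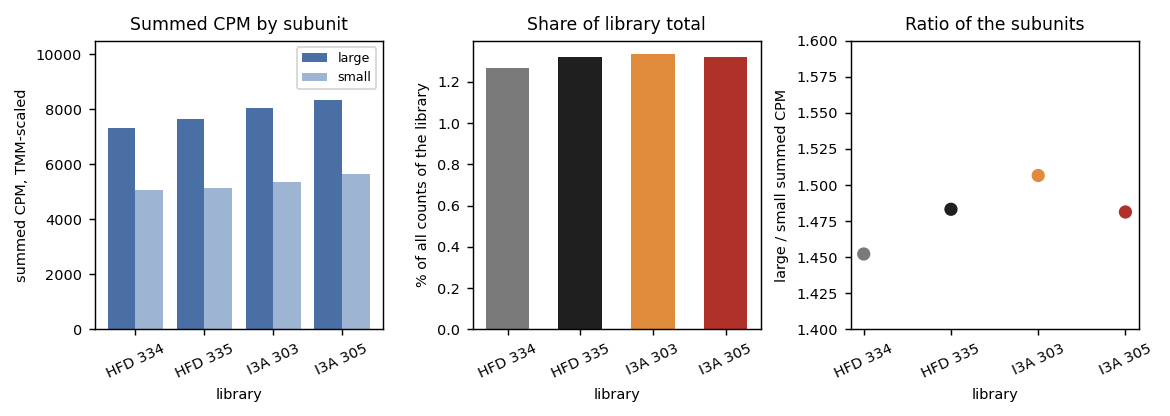
Ribosomal protein transcripts in each of the 4 libraries: summed TMM-scaled CPM of the large and small subunit (left), the members' share of all counts in percent (middle), and the ratio of the subunits (right, axis from 1.4 to 1.6). Each bar or point is 1 library; the summed CPM is higher in both I3A libraries, while the shares run only from 1.27% to 1.33%.

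Of the 82 members, 79 had enough counts to be tested, 47 of the large and 32 of the small subunit. By edgeR's quasi-likelihood test 0 members reached an adjusted p under 0.05, and neither did any of the 13403 genes tested (0%). The smallest adjusted p was 0.214 among members and 0.141 over all genes. At an unadjusted p under 0.05, 9 members (11.4%) were higher in I3A, 5 of the large and 4 of the small subunit, against 6.66% of all tested genes. No member was lower at that level, against 6.24% of all tested genes. With HFD 335 left out 4 members (5.06%) were higher, among them Rpl3, Rpl23 and Rps21, against 5.35% of all genes, so the members' share was then near that of all genes. In that setting the median log2 fold change was 0.13 for members and -0.0028 for all genes. Without HFD 334 or I3A 305 there were 5 higher (6.25% each), against 4.88% and 2.85% of all genes. DESeq2 called Rpl3 and Rpl23, at adjusted p of 0.014 and 0.038, which were 2 of the 76 members to which it gave one (2.63%). It called 3.34% of all genes to which it gave an adjusted p, so the members' share was no higher. The labels do not say that each library is its own animal, so every p here measures the spread between these libraries, which may be technical.

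Differences were small and of 1 sign in most members. The median log2 fold change of the 79 tested members was 0.09, with 68 above and 11 below 0, against -0.010 over all tested genes. It was 0.09 for the large subunit, where 42 of 47 were above 0, and 0.11 for the small, where 26 of 32 were. For 56 of the 79 members the value lay within 0.2 of 0. Both I3A libraries exceeded both HFD libraries in 48 members (60.8%), 31 of the large and 17 of the small subunit, and in 23.1% of all tested genes. Without HFD 335 it was 61 members against 35.3% of all genes. The reverse order was found in 1 tested member, Rpl35a, and in 22.5% of all tested genes. With library totals in place of TMM, 21 members were higher and 11 lower without overlap, against 15.7% and 32.7% of all genes, and the median was -0.00032 for members and -0.10 for all genes. Members were thus about 0.1 above the median gene on the log2 scale, while their own sign depended on the scaling. A change of scaling shifts all genes by nearly the same amount, so this gap could not differ much between scalings.

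**Figure D2:**
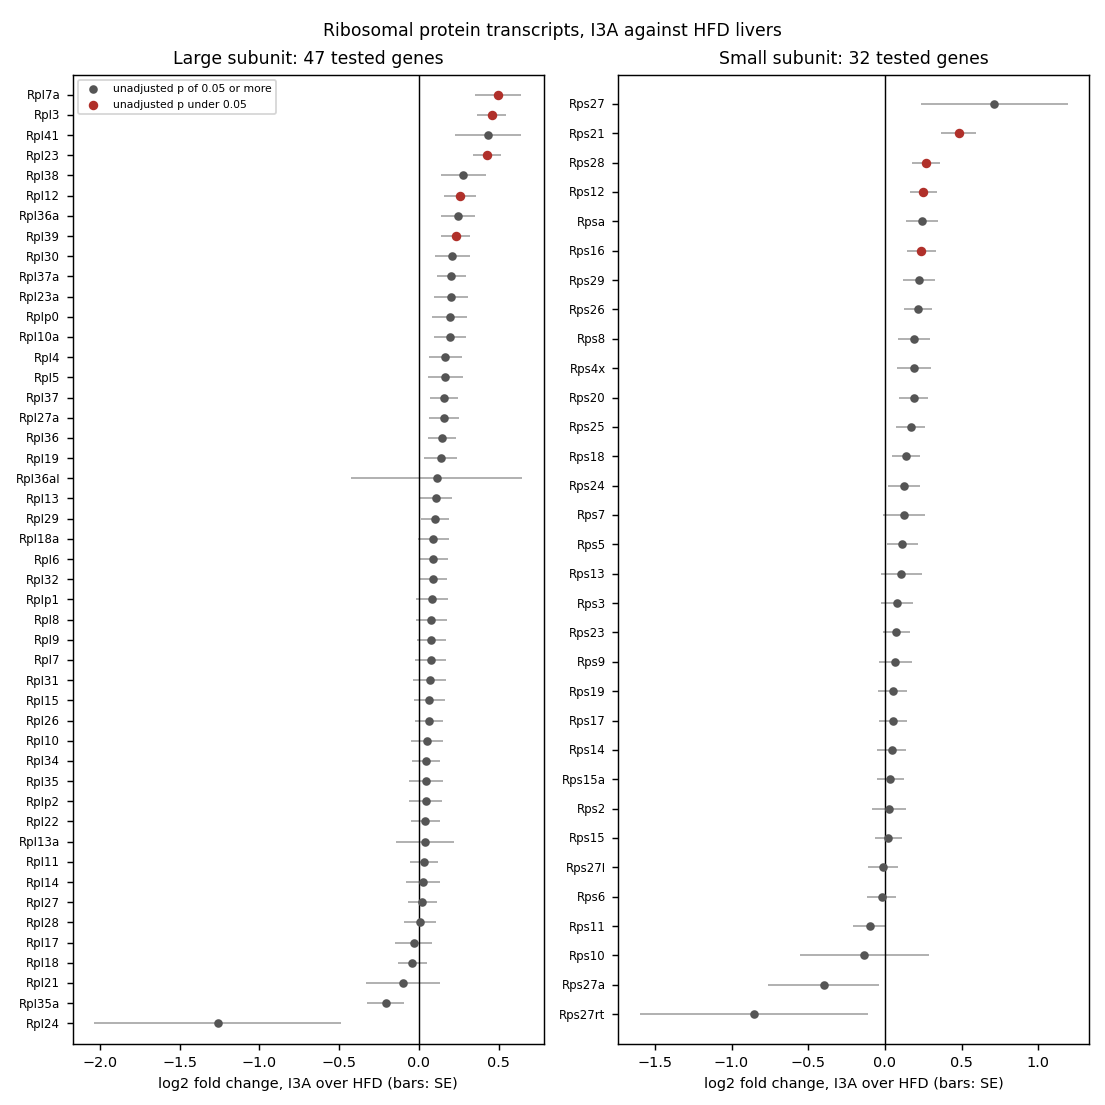
Log2 fold change of I3A over HFD with its standard error (horizontal axis) for the 47 large and 32 small subunit members tested, ordered by value. Red points have an unadjusted p under 0.05 and none has an adjusted p under 0.05; most points lie between 0 and 0.2, and the widest error bars belong to Rpl24, Rpl36al, Rps10, Rps27 and Rps27rt.

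Among large subunit members Rpl3, a core protein reaching toward the peptidyl transferase centre, had the smallest p. Rpl3 (chromosome 15, 80077791 to 80091868, minus strand, GRCm38) measured 195.9 and 196.9 CPM in HFD and 264.7 and 274.1 CPM in I3A libraries. The HFD libraries were nearly identical and both I3A libraries clearly above them. The difference was 1.37-fold (log2 fold change 0.46, SE 0.09, edgeR adjusted p 0.214).

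Rpl23 (chromosome 11, 97777527 to 97782437, minus strand), a protein of the subunit interface that also binds Mdm2, showed the same order. It measured 129.5 and 130.1 CPM in HFD and 174.9 and 173.9 CPM in I3A. The log2 fold change was 0.43 (SE 0.09), with an edgeR adjusted p of 0.214. A near-identical processed pseudogene, Gm9794, was counted apart at 69.4, 71.0, 74.9 and 73.0 CPM in HFD 334, HFD 335, I3A 303 and I3A 305. Adding it to Rpl23 lowered the log2 fold change to 0.31, as the copy itself was close to level. Rpl3 changed little by such addition, to 0.44.

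Rpl7a (chromosome 2, 26910764 to 26913318, plus strand) is a large subunit protein whose introns hold small nucleolar RNAs. It measured 54.4 and 43.7 CPM in HFD and 74.3 and 64.0 CPM in I3A. The libraries did not overlap but varied widely within each group. The log2 fold change was 0.50 (SE 0.15, edgeR adjusted p 0.304), and 0.29 once its near-identical copies, at 55.2% of its own counts, were added.

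Rpl39, a small protein lining the exit tunnel, measured 68.5 and 70.1 CPM in HFD and 82.5 and 80.2 CPM in I3A (log2 fold change 0.23). Rpl12, at the base of the stalk that recruits elongation factors, measured 106.6 and 120.1 CPM against 133.7 and 137.6 CPM (0.26). Rpl36a measured 65.8 and 75.4 CPM against 83.6 and 83.5 CPM (0.24). In each of the 3 both I3A libraries were higher, and the edgeR adjusted p values were 0.374, 0.381 and 0.412.

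In the small subunit Rps21 (chromosome 2, 180257377 to 180258445, plus strand), a protein of the subunit's body, had the smallest p. It measured 56.8 and 66.6 CPM in HFD and 84.98 and 87.2 CPM in I3A. The I3A libraries were close to each other and above both HFD libraries (log2 fold change 0.48, SE 0.11, edgeR adjusted p 0.246). Its near-identical copy held only 2 counts in all, and adding them left the log2 fold change at 0.48. How reads shared with the copy were counted is not stated, so their part in this value is unknown.

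Rps28, which lies near the messenger RNA exit, measured 54.3 and 54.2 CPM in HFD and 65.1 and 65.5 CPM in I3A. Rps12, a protein of the head, measured 61.8 and 61.5 CPM against 73.9 and 72.8 CPM. Rps16, whose tail reaches the decoding site, measured 160.5 and 155.9 CPM against 179.7 and 193.2 CPM. The 3 differences were each near 1.2-fold, with log2 fold changes of 0.27, 0.25 and 0.24 and edgeR adjusted p of 0.337, 0.350 and 0.383. Copies held 54.6% of the counts of Rps12 itself, and with them added its log2 fold change was 0.19.

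Rps26, at the messenger RNA exit channel, measured 170.0 and 165.4 CPM in HFD and 190.9 and 199.1 CPM in I3A (log2 fold change 0.22). Rpsa, also known as the laminin receptor, measured 330.0 and 349.4 CPM against 384.7 and 419.5 CPM (0.24). Both genes had I3A libraries above HFD libraries with an unadjusted p above 0.05 in edgeR.

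**Figure D3:**
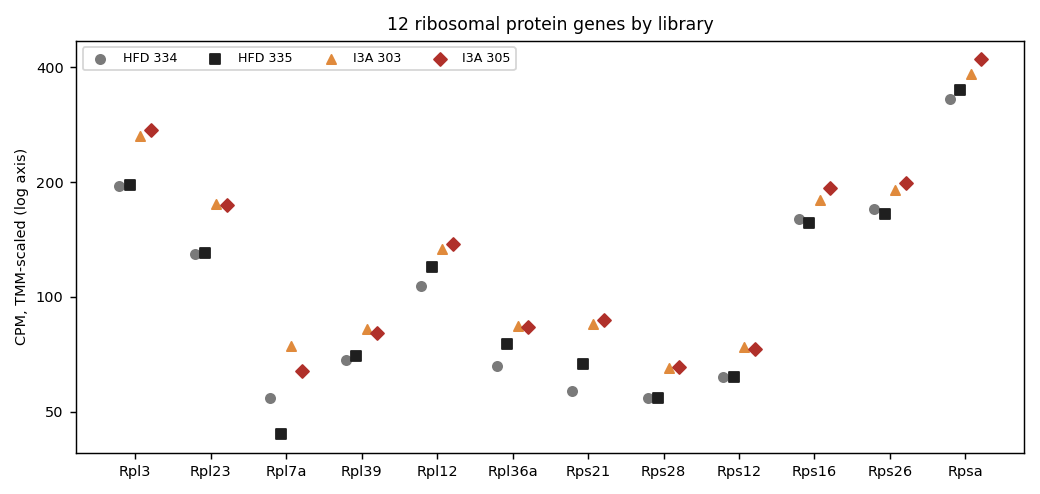
TMM-scaled CPM (log axis) in each library for the 6 large and 6 small subunit members with the smallest unadjusted p. In all 12 genes both I3A libraries (triangles and diamonds) lie above both HFD libraries (circles and squares); the widest gap between libraries of 1 group is that of Rpl7a in HFD, 43.7 and 54.4 CPM.

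Grouped by place in the ribosome, the members moved little. The stalk proteins Rplp0, Rplp1, Rplp2 and Rpl12 had a median log2 fold change of 0.14, and 4 of 4 were above 0. Rplp0, the stalk base, measured 404.3 and 432.2 CPM in HFD and 453.3 and 503.9 CPM in I3A (0.19). Rplp2, a stalk tip protein, measured 116.0 and 124.4 CPM against 116.9 and 130.5 CPM, so its groups overlapped. Rpl5 and Rpl11, which with a ribosomal RNA bind Mdm2 when assembly is disturbed, are given side by side, since their difference was not tested. Rpl5 measured 226.7 and 251.6 CPM against 254.6 and 282.1 CPM (0.17, SE 0.11), and Rpl11 stayed between 216.6 and 223.2 CPM in all libraries (0.03, SE 0.09).

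The 8 proteins of the exit tunnel and its rim had a median log2 fold change of 0.10. Rpl4, which reaches into the tunnel, measured 498.2 and 479.6 CPM in HFD and 526.5 and 571.0 CPM in I3A (0.17). Rpl35 measured 73.8 and 84.2 CPM against 79.6 and 83.0 CPM (0.04), within the range of HFD. In the small subunit, the 13 head proteins had a median of 0.14 and the other 19 a median of 0.07. None of these group medians was tested.

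Rpl35a, a large subunit protein, was the tested member lower in both I3A libraries. It measured 94.4 and 108.0 CPM in HFD and 92.6 and 82.7 CPM in I3A. HFD 334 and I3A 303 were close to each other, and the log2 fold change of -0.21 (SE 0.12, edgeR adjusted p 0.495) did not pass.

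Genes often used to normalise quantitative PCR are given side by side, since differences between them were not tested. Rps18, a head protein, measured 259.1 and 268.5 CPM in HFD and 292.1 and 288.9 CPM in I3A (log2 fold change 0.14). Rpl13a measured 10.1, 12.2, 10.7 and 12.1 CPM in HFD 334, HFD 335, I3A 303 and I3A 305 (0.04). Rplp0, given above, had the largest log2 fold change of the 3, and none passed the test. The SE was 0.11 for Rplp0, 0.09 for Rps18 and 0.18 for Rpl13a. Rpl13a held 155 to 209 counts a library, and its exons overlap Gm45713 on the same strand. Rps6, the ribosomal protein phosphorylated by S6 kinase, was level at 307.8 and 306.1 CPM in HFD and 297.2 and 307.6 CPM in I3A (-0.02).

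Levels of different genes were compared per kilobase of the deposited gene length, which counts all annotated exons. Rplp1, a stalk tip protein, had the highest mean level at 634 CPM per kb, followed by Rpl36 at 367 and Rps15, of the head, at 280 CPM per kb. By library Rplp1 ran from 588 to 656, Rpl36 from 344 to 387 and Rps15 from 277.0 to 285.0 CPM per kb, so these 3 did not overlap. Rplp0, next in order at 270.3 CPM per kb, overlapped with Rps15. The order depended on the length used: per kb of a single transcript Rplp1 again led at 634, followed by Rpl10 at 565 and Rps18 at 495, with Rpl36 at 367 and Rps15 at 353 CPM per kb. The log2 fold changes of Rplp1, Rpl36 and Rps15 were 0.08, 0.15 and 0.02. On their own scale in CPM, Rplp1 measured 293.6 and 320.9 in HFD and 324.0 and 327.5 in I3A, Rpl36 131.7 and 135.1 against 148.0 and 147.2, and Rps15 176.0 and 174.5 against 179.6 and 176.5.

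The lowest tested levels were those of Rpl24 (0.985 CPM per kb), Rpl36al (0.753) and Rps10 (0.698). Rpl24, of the subunit interface, had 30, 15, 15 and 4 counts in HFD 334, HFD 335, I3A 303 and I3A 305. Its copies held 49, 33, 25 and 42 counts in that order, and adding them moved its log2 fold change from -1.26 to -0.61. Rps10, of the head, had 22, 32, 28 and 22 counts in that order, while its processed pseudogene Rps10-ps2 held 784, 910, 763 and 924. The pseudogene thus took 96.5% to 97.7% of their joint counts, so the low value of Rps10 cannot be read as a low transcript level. Rpl24 stayed low with its copies added, at 2.57 to 5.14 CPM. Its exons overlap Gm28037, annotated on the same strand. The effect of that overlap on its counts was not tested, so its low value is uncertain as well. Rpl36al had 1.24 and 0.728 CPM in HFD and 0.772 and 1.34 CPM in I3A, and these libraries overlapped. Its exons also overlap a gene on the same strand, Gm49383, so its level is uncertain too.

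Many members have near-identical copies elsewhere in the genome. Copies were genes outside the members that matched a member's coding sequence at 95% identity or more over at least 80% of its length. Each copy was assigned to 1 member only, and 74 members were assigned at least 1. There were 545 such copies, among them many processed pseudogenes, and 332 had counts. Together the copies held from 8.01% to 8.71% as many counts as the members, and in 24 members more than 10%. The sources used here do not say how reads that fit several places were counted, so such members are uncertain. With copies added to their members the summed difference was 0.12 (log2), and 52 of 78 members were higher in I3A without overlap, against 23.1% of all genes.

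Rps27, a zinc-binding small subunit protein, and Rps27rt, an intronless gene on chromosome 9, are the clearest case. Their coding sequences of 252 bases are identical, and the transcripts align over 341 bases with 0 mismatches. Rps27l, a diverged paralog that is a target of p53, is shown beside them. Sequences come from the GENCODE transcripts of GRCm38. Capitals in Rps27 and Rps27l mark the 60 positions at which these 2 differ.
Rps27: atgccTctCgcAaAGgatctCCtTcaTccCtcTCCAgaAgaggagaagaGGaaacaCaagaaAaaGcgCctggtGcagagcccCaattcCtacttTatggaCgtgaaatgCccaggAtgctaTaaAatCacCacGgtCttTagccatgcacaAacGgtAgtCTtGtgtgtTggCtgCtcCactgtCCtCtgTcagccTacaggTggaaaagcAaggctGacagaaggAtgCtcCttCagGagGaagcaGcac
Rps27rt: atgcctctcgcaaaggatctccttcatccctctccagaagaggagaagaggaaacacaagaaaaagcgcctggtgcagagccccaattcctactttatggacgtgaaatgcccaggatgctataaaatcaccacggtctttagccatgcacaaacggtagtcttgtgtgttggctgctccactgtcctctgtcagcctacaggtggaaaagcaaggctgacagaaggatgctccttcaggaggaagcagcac
Rps27l: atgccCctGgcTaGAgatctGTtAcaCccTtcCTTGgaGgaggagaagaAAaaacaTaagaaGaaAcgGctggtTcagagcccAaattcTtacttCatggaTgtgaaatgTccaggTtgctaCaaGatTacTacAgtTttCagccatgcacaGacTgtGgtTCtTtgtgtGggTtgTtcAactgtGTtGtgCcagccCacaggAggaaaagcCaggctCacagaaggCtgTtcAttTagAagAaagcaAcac
Rps27 and Rps27rt cannot be told apart within this stretch, whereas Rps27l is 76.2% identical.

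Rps27 (chromosome 3, 90212522 to 90213651, minus strand) held 1517, 561, 1966 and 1571 counts in HFD 334, HFD 335, I3A 303 and I3A 305. Rps27rt (chromosome 9, 114982366 to 114982739, minus strand) held 440, 1576, 230 and 927. Where Rps27 was low, Rps27rt was high. Their sum was 127.4, 129.6, 141.3 and 145.1 CPM in that order, higher in both I3A libraries. Alone, Rps27 had a log2 fold change of 0.71 (SE 0.48) and Rps27rt of -0.85 (SE 0.75). With HFD 334 left out, Rps27 passed in edgeR at a log2 fold change of 1.69 and adjusted p of 0.017, and with HFD 335 left out it was 0.14. With the counts joined the value was 0.16. Rps27l was level at 120.1 and 115.9 CPM in HFD and 122.9 and 111.0 CPM in I3A (-0.01).

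The pattern of a member and a copy that mirror each other was seen in other genes, chosen after their values were seen. Rpl41, the smallest ribosomal protein, measured 160.2 CPM in HFD 334 and 244.1, 263.0 and 283.0 CPM in HFD 335, I3A 303 and I3A 305. Its copy Gm10076, with 2 mismatches over 383 aligned bases, held 607 counts in HFD 334 and 60, 129 and 196 in the others. The library with least Rpl41 had most Gm10076, though the sum still left HFD 334 lowest, at 199.7 CPM against 247.8 to 294.3 CPM. The log2 fold change of Rpl41 was 0.43 (SE 0.21), and 0.17 without HFD 334. Rps7 measured 171.5, 150.5, 157.6 and 193.0 CPM, and Gm6472, its copy on chromosome X, 27.6, 47.5, 51.6 and 27.5 CPM. Rps7 and Gm6472 together ran from 198.0 to 220.5 CPM, with both I3A libraries above both HFD libraries, while Rps7 alone had overlapped.

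**Figure D4:**
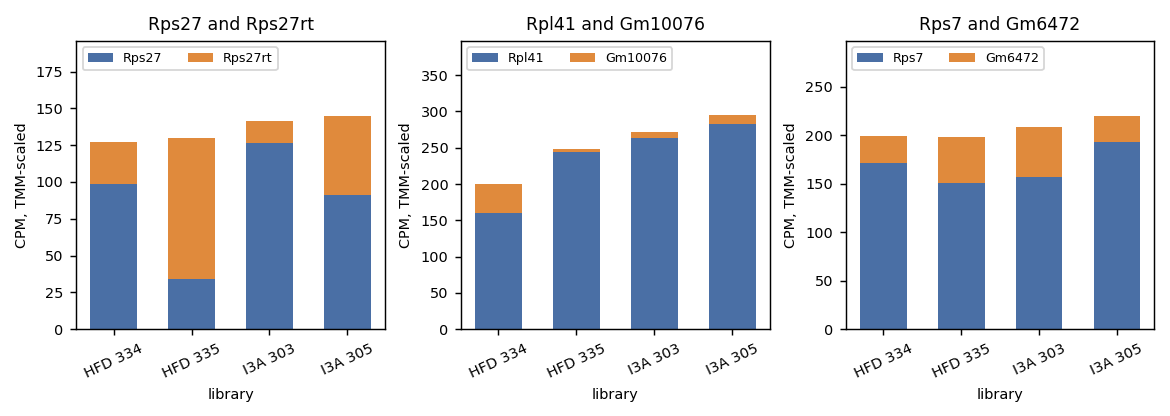
TMM-scaled CPM in each library of Rps27, Rpl41 and Rps7 (blue) with 1 near-identical copy each stacked on top (orange): Rps27rt, Gm10076 and Gm6472. The copy's share of the joint counts runs from 10.5% to 73.8% for Rps27rt, from 1.47% to 19.8% for Gm10076 and from 12.5% to 24.7% for Gm6472, while the stacked height varies less than Rps27 or Rpl41 alone.

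Over the tested members, the ratio of the highest to the lowest library had a median of 1.18 alone and 1.14 with copies added. With copies the ratio shrank in 44 tested members and grew in 26. It exceeded 1.5 in 10 members alone, and 5 of these fell under 1.5 with copies. Rps21 (1.535), Rpl24 (1.998) and Rpl36al (1.926) stayed over 1.5 with copies, and Rps27rt was joined to Rps27. Rps27a, which encodes ubiquitin fused to a small subunit protein, also stayed over 1.5. It measured 110.0 CPM in HFD 334 and 48.8, 63.1 and 57.3 CPM in HFD 335, I3A 303 and I3A 305, and its ratio was 2.25 alone and 2.09 with copies. Its log2 fold change was -0.40 (SE 0.36), and 0.32 without HFD 334.

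Introns of 29 members host small nucleolar RNAs, which guide the modification of ribosomal RNA. Hosts had a median log2 fold change of 0.16 and included 7 of the 9 members with an unadjusted p under 0.05. The other 50 tested members had a median of 0.07. This division was made with the members' values known and was not tested. Members with copies above 10% of their own counts had a median of 0.14 and the others of 0.08. Exons of 38 members overlap another annotated gene, and for Rps25, Rpl18, Rpl15, Rpl31, Rpl23a and Rpl35 the overlapping genes held more than 10% of the member's own counts, so these 6 are uncertain as well. That limit misses members overlapped on their own strand by a gene with almost no counts. Such members include Rpl24, Rps10, Rpl36al and Rpl13a, all low in counts, and Rpl19, which was not low. The effect on their counts was not tested.

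Paralogs with a restricted tissue range were near or at 0. Rpl10l and Rpl39l, known from the male germ line, had 0 counts in every library, which allows up to 0.174 to 0.195 CPM and covers counting error only. Their widely expressed partners were plain, with Rpl10 at 443.5 and 443.8 CPM in HFD and 448.5 and 470.9 CPM in I3A. Rpl3l, the paralog of striated muscle with a coding sequence 74.3% identical to that of Rpl3, had 61 counts in HFD 335 and 5, 4 and 3 in HFD 334, I3A 303 and I3A 305. Of the 10 skeletal muscle markers, Acta1 and Ckm had 6221 and 1408 counts in HFD 335 and 0 in each other library. The part of muscle tissue in the Rpl3l counts was not tested.

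Other paralogs differed less. Rps4x, the X-linked small subunit gene, measured 170.9 and 194.3 CPM in HFD and 199.4 and 217.6 CPM in I3A (log2 fold change 0.19). Rps4l, annotated as a transcribed pseudogene and so no member, measured 20.8, 11.5, 14.8 and 12.02 CPM in HFD 334, HFD 335, I3A 303 and I3A 305. Rpl22 was level at 104.5 and 109.4 CPM in HFD and 110.7 and 109.4 CPM in I3A (0.04). Its paralog Rpl22l1, outside the pattern, measured 12.7 and 14.7 CPM against 20.3 and 18.4 CPM, a log2 fold change of 0.49 (SE 0.15, edgeR adjusted p 0.319).

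Ribosomal protein genes outside the pattern stood close to the members. Fau, a ubiquitin-like fusion, measured 184.9 and 184.0 CPM in HFD and 205.0 and 211.2 CPM in I3A (log2 fold change 0.17). Rack1, a scaffold on the small subunit, had 0.09 and Rps3a1 0.02. None of the 3 passed the test.

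Other parts of the translation and ribosome assembly machinery showed no member past an adjusted p of 0.05 in edgeR. Of 10 tested elongation factors and 35 initiation factors, 0 had an unadjusted p under 0.05, with median log2 fold changes of 0.05 and 0.02. Among 28 other messenger RNAs known to carry a terminal oligopyrimidine tract, the median was -0.0064 and 1 was higher at an unadjusted p under 0.05. That gene, Hnrnpa1, an RNA-binding splicing regulator, measured 59.7 and 60.2 CPM in HFD and 103.3 and 100.5 CPM in I3A (0.76, adjusted p 0.145). Among 66 ribosome assembly genes the median was 0.01. The helicase Ddx56 (20.9 CPM in HFD and 30.7 CPM in I3A) and the GTPase Gnl2 (28.0 and 34.6 CPM) were higher at an unadjusted p under 0.05, and Nip7 was lower (14.3 and 9.47 CPM).

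Of 15 genes of RNA polymerase I, which transcribes the ribosomal RNA, 1 was higher at that level, Taf1b, with 3.33 CPM in HFD and 6.95 CPM in I3A on average. Among 26 tested genes of the mTOR, LARP1 and Myc axis, 2 were higher. Ddit4, an inhibitor of mTOR complex 1, measured 5.92 and 5.22 CPM in HFD and 14.5 and 23.4 CPM in I3A (log2 fold change 1.77, edgeR adjusted p 0.163). Mtor itself measured 58.8 and 56.0 CPM against 69.1 and 75.2 CPM (0.33). Of 9 genes of ribosome quality control 0 had an unadjusted p under 0.05. Set beside the 6.66% of all tested genes that were higher at that level, these counts in small lists are not a result about the lists. The medians of these lists lay between -0.04 and 0.05, against 0.09 for the ribosomal proteins, and these differences were not tested.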

How the data were processed

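Liver RNA was taken up in Trizol and sequenced after NEBNext Ultra library preparation, per the labels' protocols. The authors deposited raw counts per gene, made with HISAT2 and featureCounts 1.5.0-p3 on GRCm38, per the submitters' processing notes. Aligner version, annotation, strand and the handling of multi-mapped reads are not stated in them. Both the members and lists were chosen with earlier results of these data known.

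Counts were tested in R 4.3.3 with edgeR 4.0.16 (filterByExpr with a minimum of 10 counts, TMM, quasi-likelihood, 2-sided) over 13403 genes, with Benjamini-Hochberg adjustment at 0.05. The biological coefficient of variation was 19.9%. Library pairs were compared by chi-square over tested genes, which gave 30.0 per degree of freedom within HFD and 29.4 within I3A, so each library counted as 1 replicate. Replicate numbers are not shared between groups. Alternatives used DESeq2 1.42.0, limma 3.58.1 (voom), other scalings and filters, each library left out, protein-coding genes alone, and pseudogenes or near-identical copies added to members, the last chosen after the values were seen. Copies were found with BLAST+ 2.17.0 against GENCODE transcripts of the same build, at 95% identity over 80% of the coding sequence. The scripts were tested on simulated data.

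Genes given with values were the 6 members of each subunit with the smallest unadjusted p, the 3 highest and 3 lowest per kb, genes with paralogs, reference genes, Rps6 and Rpsa, and examples from each pathway list were among its 3 smallest p. Members of a role group or with shared reads (Rpl5, Rpl11, Rpl4, Rpl35, Rpl35a, Rplp2, Rpl41, Rps7, Rps27a) were named after their values were seen. A gene that this rule would name is not reported here.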

Additional observations from a re-analysis of the deposited data

How the results depend on the processing

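With 14 alternatives, 399 of 417 values of named genes kept their sign and 18 changed it. No member passed an adjusted p of 0.05 under RLE, upper-quartile or library total scaling, either filter, limma-voom or protein-coding genes alone. DESeq2 called 335 genes (3.34%) and 2 members (2.63%), and edgeR without a filter called 619 genes and 0 members. Leaving out a library gave between 0 and 343 genes and between 0 and 2 members, the highest of each without HFD 334. Members higher at an unadjusted p under 0.05 numbered 9, but 4 under library totals (5.06%, against 4.31% of all genes), where they were Rpl3, Rpl23, Rps21 and Rpl7a, and 5 by DESeq2 (6.33% against 4.78%). They ranged from 4 to 7 with a library left out (5.06% to 8.75%, against 2.85% to 5.47% of all genes). With all 4 libraries kept, members lower numbered 1 without a filter (1.25% against 6.5%). In some fits with a library left out, members were also lower at that level.

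Library totals moved the values most: the median log2 fold change became -0.0013 for large and 0.017 for small subunit members, the summed difference 0.031, and 21 members were higher without overlap. Members above 0 fell from 68 to 39 of 79, and 29 turned below 0. Among the genes named by rule these were Rplp1 (-0.0066), Rps15 (-0.067), Rpl10 (-0.040), Rpl22 (-0.050) and Rpl13a (-0.055). Adding copies turned Rpl36al to -0.12, and upper-quartile scaling turned Rps27l to 0.0016. The cause was not tested. With a library left out, the median ranged from 0.081 to 0.14 for the large and from 0.077 to 0.18 for the small subunit, and the summed difference from 0.089 to 0.17. Of the 79 tested members 21 had ranges that crossed 0, among them Rps27a, Rps7, Rpl35 and Rplp2. For the genes named by rule such ranges were those of Rpl36al (-0.34 to 0.55), Rps10 (-0.38 to 0.10), Rps4l (-0.64 to 0.23), Rps27l (-0.071 to 0.055), Rps27rt (-2.08 to 0.27), Rpl13a (-0.078 to 0.18) and Rps6 (-0.050 to 0.021). A lone library left in a group was assumed to vary like the other groups.

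No paired analysis was possible because the groups share no replicate numbers. Rpl24 had 4 to 30 counts a library and Rps10 22 to 32, and both have copies with more counts.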
